A study of Caenorhabditis elegans with 4 samples.

Results

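JUN-1 binding on chromosome V of Caenorhabditis elegans was examined through the peaks of a ChIP-seq experiment, which sequences the DNA fragments that an antibody pulls down with a chromatin protein. All peaks on V in the combined peak list were taken, which gave 609 of the 3467 peaks of that list. The worms were hermaphrodites at larval stage L3, grown at 20 °C, of strain OP234. All 4 samples shared the unc119(ed3) allele and the transgene wgIs234, in which the jun-1 gene (T24H10.7) carries TY1, EGFP and FLAG tags next to a copy of unc119. The transgene was introduced by bombardment, and the genotype lists no jun-1 mutation, so tagged JUN-1 was recovered in worms that keep their own jun-1 gene. The 2 JUN-1 ChIP samples were enriched with a goat antibody against GFP, and the 2 input samples were total chromatin and had no values of their own here. Each list gave a start, an end and a q-value per peak in WormBase WS180 coordinates. Strength is printed below as -log10 of that q-value, which is the authors' and depends on sequencing depth as well as on binding. The depth of the libraries is unknown, because no read numbers came with the lists used here. Intervals of shares are 95% Wilson intervals and cover counting error only.

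JUN-1 belongs to the Jun family of basic leucine zipper factors, which bind DNA as dimers and, paired with Fos family members, form AP-1. AP-1 factors act in responses to stress, growth signals and development. Chromosome V is the longest worm chromosome, and its outer regions are rich in large families of chemoreceptor genes. In worm autosomes the arms recombine often and are rich in repeats, whereas the centres hold more of the conserved and essential genes. No genome or annotation of build WS180 was used here, so peaks are named by position, without genes or sequence.

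Replicate 1 gave 165 peaks on V, of 918 in all, and replicate 2 gave 610, of 3472. All 165 replicate 1 peaks on V overlapped a combined peak by at least 1 bp, and they fell in 160 combined peaks. Each of the 165 also overlapped a replicate 2 peak, so replicate 1 added no site on V that replicate 2 lacked. On V, 554 combined peaks (91.0%) were identical in start, end and q-value to a replicate 2 peak. The other 55 lay between 0 and 1 Mb and between 14 and 15 Mb, and 1 of them overlapped no replicate 2 peak. The combined and replicate 2 lists are therefore not separate evidence on V, and replicate 1 is the comparison used below. The labels do not state if the replicates were separate cultures, so the tests below describe these lists alone.

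Peaks on V were unevenly spread and were densest between 10 and 14 Mb. The 20 whole stretches of 1 Mb held a median of 26.5 combined peaks, with a lowest count of 12 and a highest of 58. The fullest stretch ran from 13 to 14 Mb with 58 peaks, followed by 10 to 11 Mb with 53 and 11 to 12 Mb with 51. Between 12 and 13 Mb there were 42 peaks, so the 4 stretches together held 204 peaks, 33.5% of the peaks on 19.1% of the span. The emptiest stretches were 3 to 4 Mb and 4 to 5 Mb with 12 peaks each, and 17 to 18 Mb with 13. Both thin zones lay inside the arms, away from the chromosome ends. The counts were higher again at the ends, with 25 peaks in the first 1 Mb and 30 in the last, incomplete stretch.

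Replicate 1 showed the same broad shape with fewer peaks. Its fullest stretch was also 13 to 14 Mb, with 16 peaks, followed by 10 to 11 Mb with 15 and 11 to 12 Mb with 14. Between 10 and 14 Mb it held 53 peaks, 32.1% of its peaks on V. It had 0 peaks from 4 to 5 Mb, where the combined list had 12. A limit of 3 counts for a count of 0 allows a share of up to 25% overlapped there. Over all V peaks the share was 26.3%, but these 12 peaks had a median -log10 q of 5.42. Of the V peaks with a -log10 q of 5.30 to 7.16, 7.44% were overlapped. The stretch was singled out by its count of 0, so no shortfall is read from it. Across the 20 whole stretches, Spearman's rho between combined and replicate 1 counts was 0.89, given as a description because the combined list contains the sites of replicate 1.

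**Figure D1:**
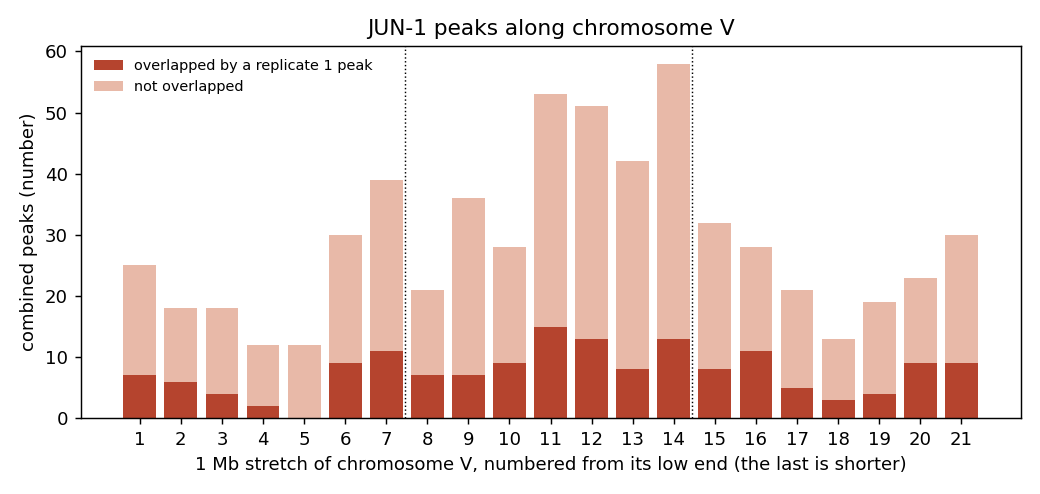
Number of combined JUN-1 peaks in each 1 Mb stretch of chromosome V, numbered from the low end, with the dark part of each bar showing peaks overlapped by replicate 1 and dotted lines marking the cuts between arms and middle. Stretches 11 to 14 are the tallest group, and stretch 5 has 12 peaks with 0 overlapped.

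The longest stretches without any combined peak lay in the arms as well. They ran from 2896552 to 3315346 (419 kb), from 17023273 to 17352785 (330 kb) and from 2327453 to 2600557 (273 kb). Neither replicate list held a peak in any of these 3 stretches. That is not separate evidence, because every replicate 1 peak on V overlaps a combined peak and the combined list nearly equals that of replicate 2. By comparison, the median gap between neighbouring peaks on V was 14693 bp, with quartiles of 2511 and 45171 bp.

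The centre of V held more peaks than either arm. With the span from base 1 to the last peak end cut into 3 equal lengths of 6.97 Mb, the middle part (6966472 to 13932943) held 289 peaks, or 41.5 per Mb. The low-coordinate arm held 153 peaks, or 21.96 per Mb, and the high-coordinate arm 167, or 24.0 per Mb. Within the middle part most peaks lay from 10 Mb on. The stretches 7 to 8, 8 to 9 and 9 to 10 Mb held 21, 36 and 28, beside a median of 26.5 per whole stretch. The stretch from 6 to 7 Mb, nearly all in the low arm, held 39. In replicate 1 the middle held 76 peaks and the low and high arms 40 and 49. The median peak position on V lay at 53.2% of the span in the combined list and at 55.2% in replicate 1.

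The share in the middle was not distinguished from that of the other autosomes at the planned cut. It was 47.5% on V (interval 43.5 to 51.4%), against 42.5% (40.4 to 44.5%) of the 2287 peaks on chromosomes I to IV. A two-sided Fisher's exact test gave p = 0.0274, or 0.11 after Benjamini-Hochberg adjustment over the 4 shares compared. Over all 5 autosomes the share was 43.5%. Chromosome V was highest with 47.5%, then II with 46.8%, I with 43.8%, IV with 42.4% and III with 37.5%, and the intervals of V, II, I and IV overlapped. Replicate 1 gave another order, with 46.1% on V against 54.2% on I, 47.6% on II, 42.4% on III and 37.0% on IV. When the middle 50% of each span was taken instead, V held 66.5% against 60.6% on I to IV (Fisher's exact test, adjusted p = 0.0342). In replicate 1 the same cut gave 67.3% on V against 61.9% (Fisher's exact test, adjusted p = 0.324), an alternative added after the data had been seen. Neighbouring peaks are not independent of each other, so the p-values from these tests are too small. Gene content was not allowed for.

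**Figure D2:**
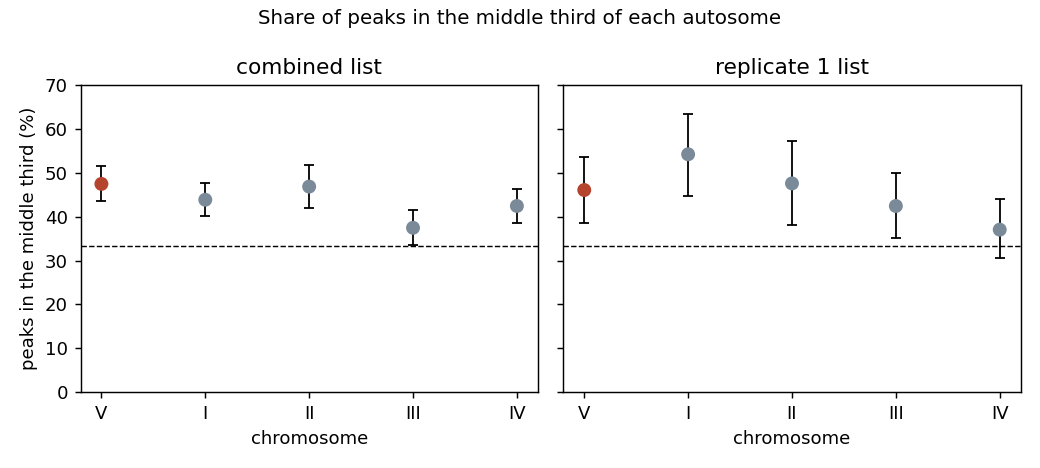
Share of peaks (%) in the middle of the 3 equal lengths of each autosome, in the combined list at the left and the replicate 1 list at the right, with 95% Wilson intervals and a dashed line at the share of the length. Chromosome V is at 47.5% in the combined list and 46.1% in replicate 1, and its intervals overlap those of most other autosomes.

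The fullest 4 Mb window of V ran from 10 to 14 Mb in both the combined and the replicate 1 list. Chromosome IV had its fullest window from 8 to 12 Mb in both lists, I from 6 to 10 Mb and III from 5 to 9 Mb, and on II it ran from 5 to 9 Mb in the combined list and from 8 to 12 Mb in replicate 1. The window held 33.5% of the combined peaks on V, against 36.3% on I, 36.4% on II, 34.2% on III and 31.2% on IV. It covered 19.1% of the span on V and between 22.9 and 29.1% of it on the other autosomes. These windows were chosen by their counts and are a description.

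Over its whole length V carried 29.1 combined peaks per Mb, above II with 26.99 and below IV with 36.3, III with 39.9 and I with 46.2. Its peaks covered 362 kb, or 1.73% of the span, against 1.82 to 2.32% on the other autosomes. The 1.82% was that of II, where a single peak of 25340 bp was part of the 277 kb covered. The replicate 1 peaks covered 0.529% of V, above I with 0.498% and below 0.622 to 0.730% on II to IV. In replicate 1, V had 7.89 peaks per Mb, between I with 7.16 and IV with 10.8.

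Peaks on V had a median width of 423 bp with quartiles of 331 and 627 bp, and ranged from 5 to 9336 bp. The medians of the other autosomes lay between 388 bp on I and 433 bp on II. Strength on V had a median -log10 q of 6.03 with quartiles of 4.45 and 9.32, the lowest median of the 5 autosomes, where the others ranged from 6.21 on IV to 7.20 on I. When all 3467 peaks were ranked by strength and cut into 5 equal groups, V held 15.3 and 14.9% of the 2 strongest groups. In the 3 weaker groups it held 19.2, 19.6 and 18.9%, and over all groups 17.6%, a share inside the interval of each group. The intervals of neighbouring groups overlapped, with 12.4 to 17.7% in group 2 and 16.4 to 22.3% in group 3. In the replicate 1 list the median on V was 5.98, inside the range of the other autosomes (5.78 to 6.43).

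Width and strength on V were linked, with a Spearman's rho of 0.48 across the 609 peaks, which share the same libraries. Of the 10 strongest peaks, 6 were also among the 10 widest. Broad peaks of 800 bp or more numbered 100 on V, 16.4% (interval 13.7 to 19.6%), beside 16.2% over all combined peaks and 15.0% (13.6 to 16.5%) on chromosomes I to IV. The difference from I to IV did not pass Fisher's exact test (adjusted p = 0.375). The 100 broad peaks covered 151 kb, 41.7% of all bases under peaks on V. They had a median -log10 q of 11.6, against 5.63 for the 509 peaks under 800 bp. Replicate 1 overlapped 57 of the broad peaks (57%, 47.2 to 66.3%) and 103 of the narrower ones (20.2%, 17.0 to 23.9%).

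**Figure D3:**
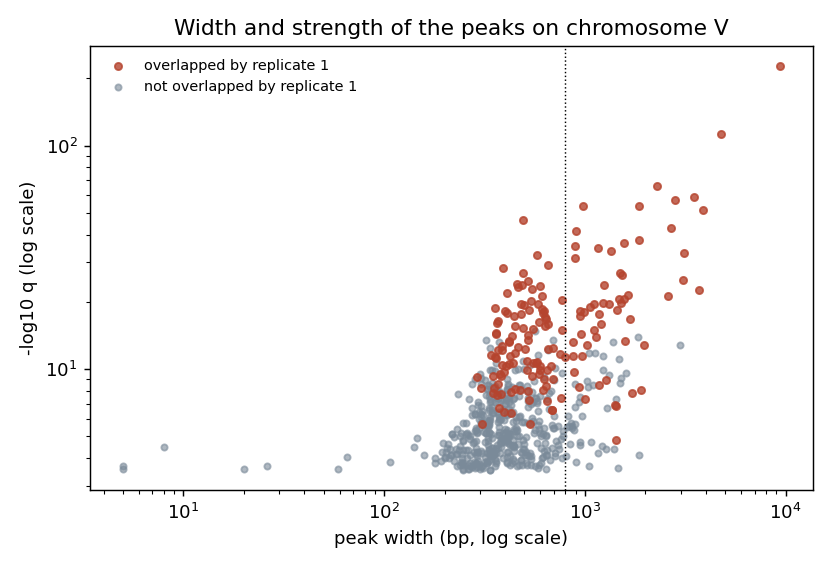
Width (bp, log scale) and -log10 q (log scale) of the 609 combined peaks on chromosome V, with peaks overlapped by replicate 1 in red and the others in grey, and a dotted line at 800 bp. The site of 9336 bp with a -log10 q of 227 stands apart at the upper right, and grey points lie mostly at the lower left.

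The strongest and widest site on V spanned 6220745 to 6230080, 9336 bp, and its -log10 q was 227, the second highest of all combined peaks. Replicate 1 covered nearly the same interval, 6221003 to 6230001, as its strongest peak of all. It was 1.97 times as wide as the next widest on V. A weak peak of 631 bp with a -log10 q of 4.68 followed after 334 bp, at 6230415 to 6231045, where replicate 1 had none. The peaks ranked 5 and 6 on V, at 6275950 to 6278764 (-log10 q 57.0) and 5999921 to 6000896 (53.9), lay on either side. Thus 3 of the 10 strongest peaks fell within 279 kb of the low arm, a grouping noticed after the values were seen. A further peak of 3112 bp, the one ranked 17, stood at 5841974 to 5845085 (-log10 q 32.9).

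The second strongest site lay near the low end, at 723687 to 728436, a width of 4750 bp, and its -log10 q was 113. Replicate 1 gave it as 723806 to 728325, also second on V. Among all chromosomes the site ranked 13 in the combined list and 12 in replicate 1. It was the first of 4 peaks in a run that ended at 731793.

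Some wide sites were unbroken in the combined list and divided in replicate 1. The peak ranked 3 on V, at 13907563 to 13909840 (2278 bp, -log10 q 65.7), was matched by 2 replicate 1 peaks of 1392 and 506 bp, ranked 14 and 24 on V there. The peak ranked 8, at 13655126 to 13659009 (3884 bp, -log10 q 51.4), was matched by 3, with -log10 q values of 4.16, 6.44 and 9.15 and ranks of 148, 68 and 36. The peak ranked 10, at 11887681 to 11890352 (2672 bp, -log10 q 42.6), was matched by 2, ranked 16 and 43. Only 1 other peak on V was divided in this way, the one ranked 5 in the low arm, with parts ranked 12 and 25. These 4 sites were all the combined peaks on V with more than 1 replicate 1 peak, and each was among the 10 strongest.

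The remaining 3 of the 10 strongest were single peaks in both lists. Of these, the peak ranked 4, at 19048473 to 19051953 (3481 bp, -log10 q 58.9), was in the high arm and ranked 5 in replicate 1. The peak ranked 7, at 9342899 to 9344758 (1860 bp, -log10 q 53.9), ranked 4 in replicate 1. The narrowest of the 10, at 18346001 to 18346490, was 490 bp wide. Its -log10 q was 46.5, and replicate 1 placed it at rank 9 on V. By position, 4 of the 10 strongest lay in the middle part, 4 in the low arm and 2 in the high arm. Replicate 1 held a peak in all 10, and 6 of the 10 contained one of its own 10 strongest on V.

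Of the 10 widest peaks, 4 were not among the 10 strongest. The peak at 16592102 to 16595795 was 3694 bp wide with a -log10 q of 22.7, but replicate 1 matched it with 418 bp near its high end, from 16595359 to 16595776 (-log10 q 4.60). The peaks at 5841974 to 5845085 and at 10714694 to 10717764 (3071 bp, -log10 q 24.95) were matched over 1709 and 1753 bp. The fourth, at 18637520 to 18640512, was 2993 bp wide, had a -log10 q of 12.9 and no replicate 1 peak. Of the 12 peaks of 2000 bp or more, it was the one without overlap.

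Replicate 1 overlapped 160 of the 609 combined peaks on V, 26.3% (interval 22.9 to 29.9%), beside 25.7% of all combined peaks. The share on chromosomes I to IV was 24.0% (22.3 to 25.8%), a difference that did not pass Fisher's exact test (adjusted p = 0.324), and with I left out it was 27.9%, above V (adjusted p = 0.456). Overlapped peaks on V had a median width of 614 bp and a median -log10 q of 14.3, against 381 bp and 5.13 for the 449 others. The 77 strongest peaks on V were all overlapped. The weakest overlapped peak ranked 414 with a -log10 q of 4.84.

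The share fell steeply with strength. The weakest V peak listed in replicate 1 had a -log10 q of 3.95, against 3.53 in the combined list. Replicate 2 peaks on V had a higher -log10 q than their replicate 1 partners, with a median ratio of 2.27. How far the fall follows from these limits of the replicate 1 list was not tested. When the V peaks were cut into 5 groups by -log10 q, replicate 1 overlapped 107 of 122 in the strongest group (87.7%, interval 80.7 to 92.4%), 43 of 122 in group 2 (35.2%), 9 of 121 in group 3 (7.44%) and 1 of 123 in group 4 (0.813%). In the weakest group it overlapped 0 of 121 (Wilson upper limit 3.08%), and a limit of 3 counts for a count of 0 allows a share of up to 2.48%. Peaks of chromosomes II to IV in the same ranges of -log10 q gave 89.2, 32.0, 1.52, 1.12 and 0%. In group 3 the interval on V, 3.96 to 13.5%, lay above that on II to IV, 0.653 to 3.52%. These gaps were noticed among 5 groups after the values were seen and were not tested. In the stronger 50% of all combined peaks V had 56.4% overlapped against 47.0% on I to IV (Fisher's exact test, adjusted p = 0.0235), but 57.0% on II to IV, so the call rested on chromosome I.

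**Figure D4:**
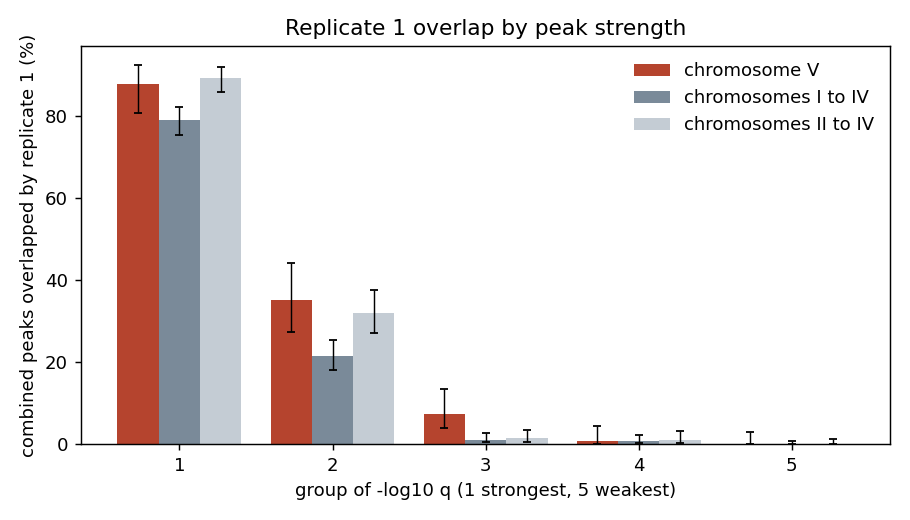
Share of combined peaks overlapped by replicate 1 (%) in 5 groups of -log10 q, cut at the quintiles of chromosome V, for V, for chromosomes I to IV and for II to IV, with 95% Wilson intervals. V falls to 0 in group 5, against 87.7% in group 1, and stays close to II to IV except in group 3, with 7.44 against 1.52%.

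The strongest V peaks with no replicate 1 partner ranked 78, 84, 86, 87 and 91 on V. The first, at 19053104 to 19053665 (562 bp, -log10 q 14.9), lay 1150 bp beyond the strong site at 19048473. The others were at 8383580 to 8385415 (1836 bp, -log10 q 13.99), 8935967 to 8936663 (697 bp, 13.5), 4024814 to 4025136 (323 bp, 13.5) and 15666688 to 15667062 (375 bp, 13.3). The one at 4024814 was the strongest peak of the 4 to 5 Mb stretch, where replicate 1 had none.

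Overlap in the middle of V was not distinguished from that in the arms. It was 72 of 289 peaks (24.9%, interval 20.3 to 30.2%) in the middle and 88 of 320 (27.5%, 22.9 to 32.6%) in the arms (two-sided Fisher's exact test, p = 0.519). The share of peaks in the middle did not change steadily with strength, in a description that was not tested. Of the strongest group, 47 of 122 peaks (38.5%) lay in the middle, and in groups 2 to 5 between 45.5 and 54.1% did, with the highest share in group 2. Of the 275 V peaks in the stronger 50% of all combined peaks, 124 (45.1%) lay in the middle, near the 47.5% of all V peaks. Median widths were 422 bp in the middle, 422 bp in the low arm and 424 bp in the high arm. Median -log10 q was 5.78 in the middle, 6.25 in the low arm and 6.26 in the high arm. The middle part of V thus held more peaks per Mb, mostly through its stretches from 10 Mb on. Its peaks were of much the same width as those of the arms.

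Each replicate 1 peak on V was set beside its replicate 2 partner. The ratio of -log10 q, replicate 2 over replicate 1, had a median of 2.27 and quartiles of 1.95 and 2.68. On the other autosomes the median was 3.66 on I and 2.36 to 2.49 on II to IV. The midpoints of the 165 pairs on V lay a median of 23.5 bp apart, and 152 replicate 1 peaks lay wholly inside the partner. Across these pairs Spearman's rho was 0.83, a description over 165 pairs that share 160 replicate 2 peaks.

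The share of peaks with a close neighbour on V was near that of the whole list. A gap of 1000 bp or less to the next peak was found for 144 peaks, 23.6% (interval 20.4 to 27.2%), beside 20.8% over all combined peaks. On chromosomes I to IV the share was 20.8% (19.2 to 22.5%), and the difference did not pass Fisher's exact test (adjusted p = 0.266). Chromosomes I and III had 23.4 and 22.5%, close to V, and II and IV had 18.0 and 18.1%. In replicate 1 the shares were 18.8% on V and 12.2% on I to IV (Fisher's exact test, adjusted p = 0.0781). The smallest gap on V was 209 bp, and no list held a gap under 204 bp on any chromosome. The share with a close neighbour was 27.7% in the middle part, where peaks are denser, and 19.0 and 21.0% in the low and high arms.

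The 144 peaks formed 62 runs, of which 47 held 2 peaks, 11 held 3, 3 held 4 and 1 held 5. Their median length was 2063 bp, and the longest, 10301 bp, was that of the strongest site and its weak neighbour. Peaks in runs had a median width of 559 bp and a median -log10 q of 7.40, against 407 bp and 5.76 for the 465 single peaks. Replicate 1 overlapped 52 of them (36.1%, interval 28.7 to 44.2%) and 108 of the single peaks (23.2%, 19.6 to 27.3%).

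The run of 5 peaks spanned 18572680 to 18578721 in the high arm. Its peaks were 445 to 1582 bp wide with -log10 q values of 13.4, 7.34, 6.08, 9.99 and 4.52 along the chromosome, and replicate 1 overlapped the first 2. The run behind the site at 723687 continued with peaks of 760, 654 and 654 bp and -log10 q values of 7.39, 12.1 and 29.1. Replicate 1 overlapped 3 of its 4 peaks, including the weak second one but not the third. The run at 13653980 to 13659523 held the divided site of 3884 bp between peaks of 774 and 302 bp.

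In the other runs of 4 the strongest peaks ranked 116 and 139 on V. At 14847264 to 14851606 the -log10 q values were 5.11, 6.77, 5.41 and 11.4, and replicate 1 overlapped 0 of the 4 peaks. At 20410654 to 20414635 they were 4.07, 5.44, 4.47 and 9.93, and replicate 1 overlapped the last. In both of these runs the strongest peak was the one at the high-coordinate end.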

How the data were processed

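The authors deposited 3 peak lists, 1 per JUN-1 ChIP replicate and 1 combined, called with PeakSeq on WormBase WS180 per the file headers and source column. The authors' q-values (p-values adjusted by the caller) are the only value per peak, and each peak's start and end are given as other numbers, in bases from 1. For the PeakSeq version, aligner, control, filters, depth and the making of the combined list, the entry is: not given in the sources used here. List length and q depend on depth, so replicates were compared by position, rank and share.

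The members and lists were chosen with earlier results of these data known. Groups came from the sample titles, since the free-text descriptions of the ChIP and input samples appear exchanged. A peak's midpoint set its stretch and part. A chromosome's span was counted from base 1 up to the furthest peak end seen in the 3 lists. Overlap meant 1 bp or more, a run peaks chained at gaps of 1000 bp or less, and broad 800 bp or more. Shares on V were compared with chromosomes I to IV by two-sided Fisher's exact test, adjusted over 4 shares (Benjamini-Hochberg, threshold 0.05). Named were the 10 strongest and 10 widest peaks, the 5 strongest without replicate 1, the 5 largest runs, the 3 fullest and 3 emptiest whole stretches of 1 Mb and the 3 longest gaps. Alternatives covered the list, threshold, width, overlap, gap, span and chromosome I. Tables were handled with pandas 2.3.3 and NumPy 2.4.6 in Python 3.11.15, tests came from SciPy 1.17.1 and, for the Mantel-Haenszel estimate, statsmodels 0.14.6, and figures from matplotlib 3.10.9. The overlap, run and share steps were tested on simulated data.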

Additional observations from a re-analysis of the deposited data

How the results depend on the processing

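The share of V peaks with a close neighbour stayed on the same side of the threshold, with the same direction, in every alternative tried on it, and the fullest stretch of 0.5 Mb held 33 peaks. The share in the middle passed the threshold with the middle 50% of the span, at 66.5% on V against 60.6% on I to IV and, added after seeing the data, against 59.8% on II to IV (Fisher's exact test, adjusted p = 0.0342 and 0.0179). It did not pass under its other alternatives, where the adjusted p ranged up to 0.787. The share overlapped by replicate 1 passed in the stronger 50% of the list (56.4%). It turned below the other autosomes without chromosome I, with 26.3% of all V peaks, 56.4% of the stronger 50% and 39.5% at a q of 1e-05 or less, the last 2 added. The overlap in the middle turned above that of the arms in the stronger 50% of the list (56.5 against 56.3%) and within 5 groups of strength (Mantel-Haenszel odds ratio 1.27, interval 0.722 to 2.23, from the 4 groups that held any overlapped peak). For these changes of direction, the cause was not tested. Without replicate 1 or without replicate 2, the middle share on V was 47.4 or 46.1%, the share with a neighbour 23.6 or 18.8%, the density 29.2 or 7.89 peaks per Mb, and the broad share 16.4 or 18.2%. The broad share without replicate 2 was below that of I to IV (19.0%). The values without replicate 1 rest on the replicate 2 list, and 91.0% of the combined V peaks are identical to one of its peaks. Unknown depth limits statements on the 449 V peaks without a replicate 1 partner to non-detection there. No paired analysis was possible because only the ChIP samples had values here, and those of input with the same numbers had none.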

Other observations

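Very narrow peaks made up a smaller share of the list on V than on the other autosomes. The combined list held 16 peaks under 200 bp on V, 2.63% of its peaks (interval 1.62 to 4.22%), against 6.22% on I (4.65 to 8.28%), 5.34% on II, 4.73% on III and 4.73% on IV, and the interval of V overlapped those of II, III and IV. On X the share was 3.50% (2.28 to 5.35%), near that of V. The comparison was noticed in the data and was not tested. The 16 peaks were 5 to 196 bp wide, 5 of them under 30 bp, their highest -log10 q was 4.90, and 8 of them lay in the middle part. Replicate 1 overlapped 0 of the 16, which with a limit of 3 counts for a count of 0 allows a share of up to 18.8% (Wilson upper limit 19.4%). The replicate 1 list had no peak under 200 bp on any chromosome.

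In the 2 stretches of V where the combined list differed from replicate 2, the differences were small. The 54 differing peaks with a replicate 2 partner had starts a median of 3.5 bp apart (at most 76 bp) and ends a median of 6 bp apart (at most 358 bp). Their -log10 q differed by a median of 0.0373 and by at most 0.931.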
